A study of Mus musculus with 22 samples.

Results

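Transcripts of 8 genes best known from myeloid blood cells were followed line by line in mouse embryonic stem (ES), trophoblast stem (TS) and extraembryonic endoderm (XEN) cultures, and in the embryos counted beside them. The genes were Laptm5, Csf1r, Cd14, Cd52, Lyz2, Tyrobp, Fcer1g and Ptprc, which are 8 of the 21881 gene symbols in the count table. They were picked by symbol, with their levels in these libraries already known, so their levels are given as a description and without a test. The question was whether the genes rose and fell together from library to library, as they would if the same other cells carried them all, or each by itself. Macrophages and monocytes carry these transcripts side by side. Ptprc encodes CD45, the phosphatase found on nearly every nucleated blood cell, and Tyrobp and Fcer1g encode the small adaptor chains through which immune receptors signal. Csf1r, the receptor for the macrophage growth factors CSF1 and IL-34, is also known from the trophoblast of the placenta.

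RNA was sequenced from 7 cell lines and from 8 single embryos at embryonic day 3.5. The lines were labelled wild type for Nanog and comprised ES line 1 (female) and ES line 2 (male), TS lines 1 and 2 (female) and TS line 3 (male), and XEN lines 1 and 2 (male). Titles of the ES libraries give a serum-free culture, and the titles of the other lines name no medium. Every line had 2 libraries, called replicates 1 and 2, which the labels describe as technical replicates taken at separate passages. The embryos were 2 wild type, 2 heterozygous for Nanog and 4 Nanog-null (knockout), with females and males in equal number in each genotype. Embryo RNA was amplified as cDNA before library making and line RNA was not, so embryos and lines were not compared with each other. The sources used here do not state whether the lines grew on feeder cells, how each was derived, or whether a line is a clone.

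Total counts were 8.20 to 9.55 M (mega-counts) in the ES libraries, 9.97 to 16.5 M in TS and 12.7 to 23.7 M in XEN. Levels are given as counts per M of the library total (CPM), and 3 counts, the floor used here, correspond to 0.314 to 0.366 CPM in ES, 0.182 to 0.301 CPM in TS and 0.127 to 0.237 CPM in XEN. The labels of the lines were checked against defining genes. The summed level of the pluripotency genes Nanog, Pou5f1, Sox2, Esrrb and Zfp42 was 4683 to 5614 CPM in ES, 347 to 876 CPM in TS and 7.99 to 12.6 CPM in XEN libraries. The trophoblast genes Cdx2, Eomes and Elf5 summed to 329 to 603 CPM in TS and to at most 36.8 CPM elsewhere, and the endoderm genes Gata4, Gata6, Sox17, Foxa2, Sox7 and Pdgfra to 2107 to 3201 CPM in XEN and at most 45.6 CPM elsewhere. Replicate 1 of TS line 2 stood apart from the other 13 line libraries in macrophage and fibroblast genes, as described further on, and TS means are also given without it.

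**Figure D1:**
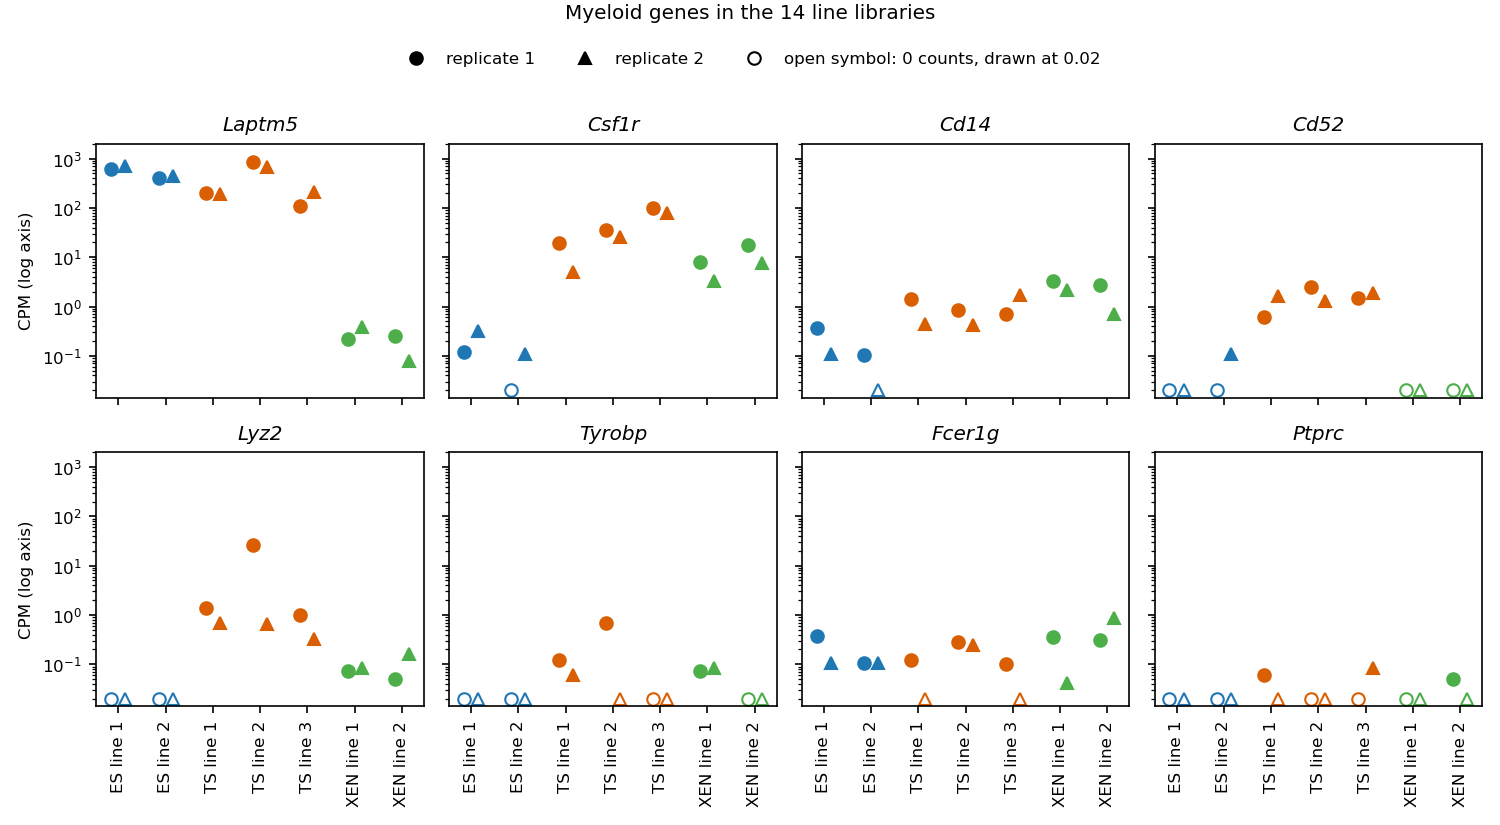
Level of each of the 8 genes in CPM (log axis) in the 14 line libraries, with circles for replicate 1 and triangles for replicate 2 of each line; open symbols mark 0 counts and are drawn at 0.02. Laptm5 is high in ES and TS, Csf1r in TS and less so in XEN, Cd52 is nearly limited to TS, and Lyz2 is high in replicate 1 of TS line 2 alone, at 25.6 CPM.

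Laptm5, which encodes a lysosomal membrane protein that sorts immune receptors for degradation, was by far the most abundant of the 8. In ES line 1 it held 617 and 693 CPM in replicates 1 and 2, and in ES line 2 it held 402 and 440 CPM. The TS lines gave 197 and 191 CPM in line 1, 856 and 684 CPM in line 2, and 108 and 214 CPM in line 3. The 4 XEN libraries together held 18 Laptm5 counts, or 0.0790 to 0.380 CPM. ES and TS libraries overlapped, and every one of them lay above every XEN library. The mean over lines was 538 ± 166 CPM in ES (SD, n = 2 lines), 375 ± 342 CPM in TS (n = 3) and 0.232 ± 0.0919 CPM in XEN (n = 2). ES lay 2313-fold and TS 1612-fold above XEN, while ES and TS differed 1.44-fold with libraries that overlapped. The XEN mean lay at the floor of 3 counts, 0.127 to 0.237 CPM, so the size of the folds against XEN rests on few counts. Without replicate 1 of TS line 2 the TS mean was 346 CPM. Without TS line 2 altogether it was 177 CPM, so that line carried much of the TS mean. The order of the lines was TS line 2, ES line 1, ES line 2, TS line 1, TS line 3 and then both XEN lines. TS line 2 and ES line 1 overlapped in their libraries, as did TS lines 1 and 3 and the XEN lines. Of the genes tested in the lines, Plcb4, Cdyl2 and Nr3c1 had the pattern most like that of Laptm5, with a Pearson correlation of log2 CPM of 0.99 for each over 14 libraries from 7 lines. Nr3c1, the glucocorticoid receptor gene, ranged from 27.4 to 38.3 CPM in ES, 15.5 to 35.9 CPM in TS and 0.634 to 1.43 CPM in XEN. Passages of a line are not independent in such a correlation, and the lineages form separate groups, so it describes a shared ranking only.

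The proximal promoters of Laptm5 and Ptprc are shown because these are the most and the least abundant of the genes and both windows hold the same short letters. PU.1, encoded by Sfpi1, is a transcription factor of the blood lineages and its core site reads GAGGAA, or TTCCTC on the opposite strand. The 250 bases before each annotated start (RefSeq, GRCm38.p6) were searched on both strands. RefSeq promoter windows were found for 4 of the 8 genes, namely Laptm5, Ptprc, Fcer1g and Lyz2, with 5 windows in all as Ptprc has more than 1 start. Laptm5 lies at chr4:130913066-130913315 on the plus strand, and Ptprc at chr1:138175306-138175555 on the minus strand; capitals mark the match.
Laptm5: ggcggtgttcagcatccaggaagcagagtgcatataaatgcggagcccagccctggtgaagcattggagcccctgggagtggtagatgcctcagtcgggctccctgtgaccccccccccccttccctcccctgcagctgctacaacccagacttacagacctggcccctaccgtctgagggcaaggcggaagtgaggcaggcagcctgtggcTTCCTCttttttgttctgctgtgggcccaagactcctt
Ptprc: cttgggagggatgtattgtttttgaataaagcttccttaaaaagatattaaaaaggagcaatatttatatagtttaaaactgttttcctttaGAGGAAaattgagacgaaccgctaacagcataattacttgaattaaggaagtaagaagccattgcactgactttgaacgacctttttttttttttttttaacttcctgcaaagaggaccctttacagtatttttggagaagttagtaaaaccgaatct
The match begins 38 bases before the Laptm5 start and 158 bases before the Ptprc start. The other Ptprc window and those of Fcer1g and Lyz2 did not hold these letters. Over the genome 7639 of 32851 such windows, or 23.3%, held the letters on either strand, so a match is common and is a description of the sequence only. The gene with up to 8876 counts in a library and the gene with at most 1 count both carried it.

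Csf1r was a TS and XEN transcript in these lines. In TS it held 19.1 and 5.12 CPM in line 1, 35.6 and 26.3 CPM in line 2, and 99.1 and 79.1 CPM in line 3. In XEN it held 7.95 and 3.25 CPM in line 1 and 17.5 and 7.66 CPM in line 2. The ES libraries held 0 to 3 Csf1r counts each, 5 in all. All TS and XEN libraries lay above all ES libraries, and TS line 1 overlapped both XEN lines. Lineage means were 44.1 ± 40.2 CPM in TS (SD, n = 3 lines), 9.08 ± 4.92 CPM in XEN (n = 2) and 0.139 ± 0.120 CPM in ES (n = 2), so TS stood 318-fold and XEN 65.6-fold above ES. The ES mean lay below the floor of 3 counts, 0.314 to 0.366 CPM, so the size of both folds rests on few counts. The TS mean exceeded the XEN mean 4.85-fold, with overlapping libraries. Without replicate 1 of TS line 2 the TS mean was 42.5 CPM. TS line 3 had the highest mean of Csf1r and the lowest of Laptm5 among the TS lines.

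The ligands of this receptor moved apart from each other. Csf1, the main ligand, ranged from 0.419 to 0.853 CPM in ES, 30.9 to 98.2 CPM in TS and 7.05 to 33.2 CPM in XEN libraries. In edgeR's quasi-likelihood test over all genes of the 7 lines it was lower in ES than in TS, at -6.63 on the log2 scale (SE 0.76, Benjamini-Hochberg adjusted p = 0.000867) and lower in ES than in XEN by -5.25 (SE 0.74, adjusted p = 0.00139). Il34, the other ligand, went the opposite way and was higher in ES than in TS by 3.30 (SE 0.72, adjusted p = 0.0102) and than in XEN by 6.89 (SE 1.08, adjusted p = 0.00222). Csf1 was also among the 3 genes whose pattern was most like that of Csf1r, at r = 0.97 over 14 libraries from 7 lines, behind Abcb9 (0.98) and ahead of Tmbim1 (0.97). Between the XEN lines Csf1 was higher in line 2 by 1.41 log2 units (SE 0.37, adjusted p = 0.0317 in edgeR on single libraries), a call lost without XEN line 1 replicate 2 (adjusted p = 0.289) and without XEN line 2 replicate 1 (adjusted p = 0.155). Csf1r averaged 12.6 ± 6.93 CPM in XEN line 2 (SD, n = 2 libraries). TS line 3 replicate 1 held the most Csf1r (988 counts) and the most Csf1 (979 counts) of the TS libraries.

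Cd14, which encodes the lipopolysaccharide co-receptor of monocytes, was low and highest in XEN. XEN line 1 held 3.22 and 2.20 CPM and XEN line 2 held 2.71 and 0.711 CPM. TS libraries held 1.40 and 0.432 CPM in line 1, 0.868 and 0.412 CPM in line 2, and 0.702 and 1.74 CPM in line 3. ES libraries held 0 to 3 counts each. XEN and TS overlapped and both lay above all ES libraries. The lineage means were 2.21 ± 0.705 CPM in XEN (n = 2 lines), 0.925 ± 0.291 CPM in TS (n = 3) and 0.145 ± 0.131 CPM in ES (n = 2). The XEN mean depended on the passage: it was 1.45 CPM from the replicates 2 alone and 2.97 CPM from the replicates 1 alone. The TS mean without replicate 1 of TS line 2 was 0.849 CPM. Other genes of its receptor system were set beside it, and some were also scarcest in ES. Tlr4, the signalling receptor, held 0 to 20 counts in the TS libraries, 2 to 10 in XEN and 0 in all 4 ES libraries. Ly96, also of this system, held 1 to 7 counts in ES, 0 to 9 in TS and 6 to 16 in XEN libraries. In replicates 1 and 2 of TS line 1, Tlr4 held 20 and 3 counts and Cd14 held 23 and 7. Ly96 went the other way there, with 0 and 8 counts. Lbp, which encodes the serum protein that hands lipopolysaccharide to CD14, held 2911 and 745 counts in XEN line 2 but 9 and 1 in XEN line 1, higher in line 2 by 8.52 log2 units (SE 0.68, adjusted p = 1.66e-05 by edgeR). Cd14 averaged 1.71 ± 1.42 CPM in XEN line 2 and 2.71 ± 0.726 CPM in XEN line 1 (SD, n = 2 libraries each), within the spread of the libraries. The nearest patterns to that of Cd14 were Yipf3, Gpr137 and Rnf103, each with r = 0.92.

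Cd52, which encodes a short glycosylphosphatidylinositol-anchored peptide of lymphocytes and macrophages, was found in TS libraries. The counts were 10 and 26 in TS line 1, 26 and 16 in TS line 2, and 15 and 23 in TS line 3. The 4 ES libraries shared a single count and the 4 XEN libraries held none, where the floor of 3 counts is 0.127 to 0.237 CPM. No TS library overlapped an ES or XEN library. The TS mean was 1.57 ± 0.419 CPM (SD, n = 3 lines), at least 8.60-fold above the mean XEN floor of 3 counts per library, and 1.38 CPM without replicate 1 of TS line 2. As for Cd14, at 0.412 to 1.74 CPM, the TS libraries were fairly even for Cd52, at 0.607 to 2.51 CPM. The genes most like it were Ctla2a (r = 0.99), Ifi202b (0.98) and Drd4 (0.98), all listed at 0 in every ES and XEN library and at 1.21 to 4.34, 0.425 to 1.54 and 2.61 to 11.4 CPM in TS.

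Lyz2, the lysozyme gene of macrophages, was the gene that changed most between passages of the same line. TS line 2 held 266 counts (25.6 CPM, 95% Poisson interval 22.7 to 28.9) in replicate 1 and 8 counts (0.659 CPM) in replicate 2. TS line 1 held 23 and 11 counts and TS line 3 held 10 and 4 counts, or 0.331 to 1.40 CPM over these 4 libraries. The ES libraries held 0 and the XEN libraries 1 or 2 counts each. A low level was thus present in all TS libraries, all of which lay above the XEN libraries, and a single passage of a single line exceeded it. The TS mean was 4.95 ± 7.10 CPM (n = 3 lines) and 0.788 CPM without that library, so the library raised it 6.29-fold. The genes most like Lyz2 were Mrc2 (r = 0.93), Tnc (0.90) and Gvin1 (0.90), and Tnc ranged from 5.52 to 91.4 CPM within TS.

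Lyz2 has a near copy next to it, Lyz1, the lysozyme gene of the small intestine. Of 1267 stretches of 50 bases in the 1316-base Lyz2 transcript, 195 (15.4%) also occurred in Lyz1, and how the deposited counts treated reads that match both is not given in the sources used here. The windows before the starts are shown because the copies are alike there too; they lie on the minus strand at chr10:117282273-117282522 (Lyz2) and chr10:117292869-117293118 (Lyz1), RefSeq, GRCm38.p6.
Lyz2: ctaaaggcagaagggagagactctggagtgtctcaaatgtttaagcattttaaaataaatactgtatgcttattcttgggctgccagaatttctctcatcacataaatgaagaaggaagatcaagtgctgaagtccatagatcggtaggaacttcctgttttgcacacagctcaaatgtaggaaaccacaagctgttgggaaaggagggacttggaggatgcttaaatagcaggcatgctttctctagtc
Lyz1: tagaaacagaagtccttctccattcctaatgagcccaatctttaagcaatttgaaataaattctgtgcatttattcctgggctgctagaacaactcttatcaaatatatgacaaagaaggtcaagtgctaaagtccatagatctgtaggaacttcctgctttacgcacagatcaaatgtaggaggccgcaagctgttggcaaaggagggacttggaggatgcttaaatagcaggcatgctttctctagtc
The final 50 bases before the start were identical, and 152 of the 250 bases matched position by position. Lyz1 followed Lyz2, with 61 counts in replicate 1 of TS line 2 and at most 4 in any other line library.

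Tyrobp and Fcer1g, the adaptor genes, and Ptprc, the CD45 gene, were at or near 0 in every line. Ptprc held 3 counts in all, in 1 library each of TS line 1, TS line 3 and XEN line 2. Tyrobp held 13 counts, of which 7 lay in replicate 1 of TS line 2 (53.8%) and none in replicate 2 of that line, and the ES libraries held 0. Fcer1g held 6 counts over ES, 9 over TS and 23 over XEN, with 11 in XEN line 2 replicate 2 as the highest. ES, TS and XEN libraries overlapped for Fcer1g. Fcer1a and Ms4a2, which encode the other chains of the mast cell IgE receptor that contains the Fcer1g product, were listed at 0 in all 14 line libraries. Trem3, which encodes a receptor that signals through the Tyrobp product, was also at 0 in all of them.

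Per length the genes also differed widely within a lineage. With exon lengths from GENCODE M21, TS levels were 98.9 CPM per kilobase for Laptm5, 7.63 for Csf1r, 3.76 for Lyz2, 1.33 for Cd52, 0.534 for Cd14, 0.214 for Tyrobp and 0.145 for Fcer1g. Without replicate 1 of TS line 2, Lyz2 was 0.599 CPM per kilobase and lay below Cd52, at 1.16, while Tyrobp was 0.0457 and lay below Fcer1g, at 0.137. In XEN the order was Csf1r at 1.57 CPM per kilobase, Cd14 at 1.28 and Fcer1g at 0.451, with Laptm5 at 0.0614. In ES it was Laptm5 at 142 CPM per kilobase and no other gene above 0.196.

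Set side by side, the 8 genes did not follow a common ranking of the lines. As a share of their summed counts, Laptm5 made up 99.9% in both ES lines, 92.6% in TS line 1, 94.3% in TS line 2 and 64.3% in TS line 3, but 3.88% and 1.14% in XEN lines 1 and 2. Csf1r made up 34.2% in TS line 3, 5.81% in TS line 1 and 3.78% in TS line 2, and 60.8% and 83.1% in the XEN lines. Cd14 reached 31.4% in XEN line 1 and 11.8% in XEN line 2, and 0.438% in TS line 1. The exact 95% binomial intervals of the Laptm5 share in the TS lines (92.0 to 93.2%, 94.0 to 94.7% and 63.1 to 65.6%) did not overlap. They cover counting error only. The line with the highest mean was TS line 2 for Laptm5, Cd52, Lyz2 and Tyrobp, TS line 3 for Csf1r, and XEN line 1 for Cd14. Without replicate 1 of TS line 2, that line still led for Laptm5 at 684 CPM, but TS line 3 led for Cd52 (1.71 CPM, against 1.32 CPM in TS line 2) and TS line 1 for Lyz2 (1.04 against 0.659 CPM) and Tyrobp (0.0915 against 0 CPM). In bulk RNA a smaller number of cells with a transcript and less of it per cell cannot be told apart.

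The passages of a line gave the closest view of whether the genes move together. In TS line 1 replicate 1 had 3.73-fold more Csf1r (95% counting interval 2.92 to 4.81) and 3.23-fold more Cd14 (1.34 to 8.91) than replicate 2, yet 2.65-fold less Cd52 (1.23 to 6.15), while Laptm5 differed 1.03-fold (0.983 to 1.08). In TS line 3 replicate 2 had 1.98-fold more Laptm5 (1.85 to 2.13) and 2.48-fold more Cd14 (1.01 to 6.90), and replicate 1 had 1.25-fold more Csf1r (1.14 to 1.37). Between these passages of TS lines 1 and 3 some of the genes thus moved in opposite directions. The intervals cover counting error only and not the spread between libraries. In TS line 2 replicate 1 was higher for Lyz2 by 38.9-fold (19.5 to 91.1), for Laptm5 by 1.25-fold (1.21 to 1.29) and for Csf1r by 1.35-fold (1.16 to 1.58), and the interval for Cd52, at 1.90-fold (0.982 to 3.79), held 1. In both XEN lines replicate 1 was higher for Csf1r, by 2.44-fold (1.81 to 3.31) in line 1 and 2.28-fold (1.81 to 2.89) in line 2. Cd14 was 3.82-fold higher in replicate 1 of XEN line 2 (1.87 to 8.80), and its ratio in XEN line 1, 1.47 (0.962 to 2.23), had an interval that held 1. Fcer1g in XEN line 2 held 6 and 11 counts, a ratio of 0.354 (0.107 to 1.04). In the ES lines Laptm5 differed 1.12-fold and 1.09-fold, higher in replicate 2 of each.

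**Figure D2:**
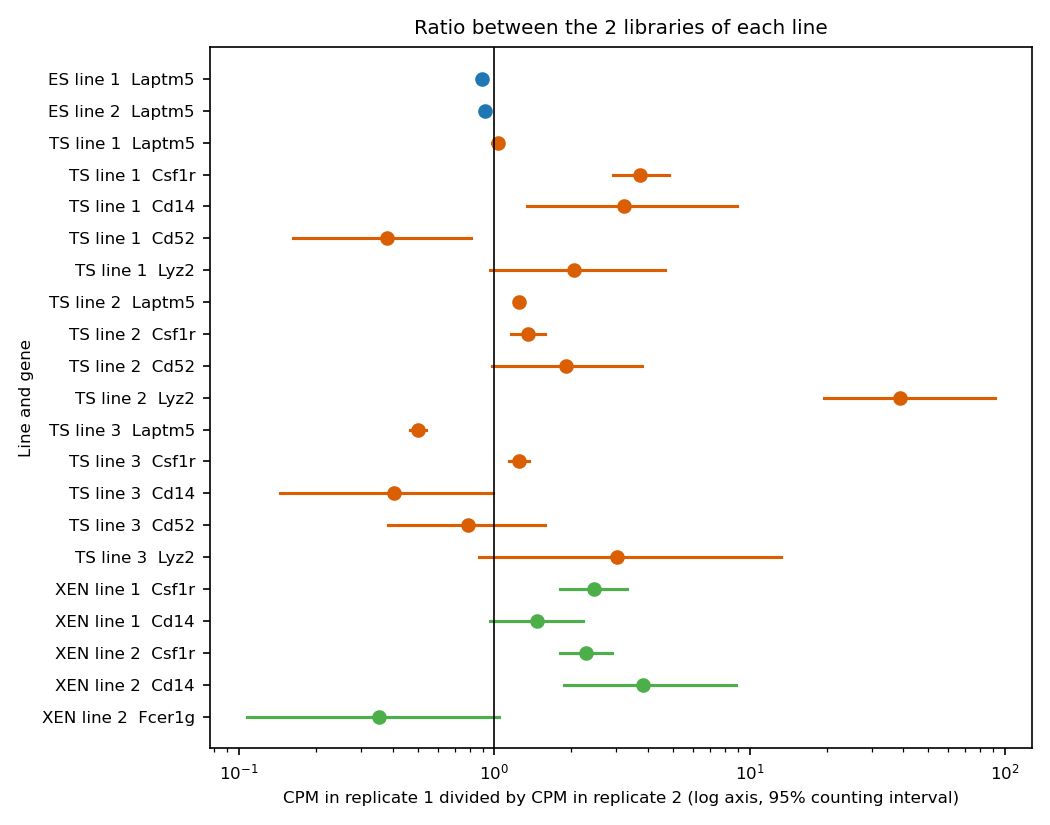
Ratio of CPM in replicate 1 to CPM in replicate 2 (log axis) for each line and each of the 8 genes with at least 10 counts in either library, with its 95% counting interval; the vertical line marks equal levels. Lyz2 in TS line 2 lies at 38.9, and TS lines 1 and 3 each have genes on both sides of 1.

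Calls by the fit over all genes are given as counts only, since the genes were chosen with these contrasts known. Of the 8 genes 5 had enough counts to be tested in the lines. Cd52 and Lyz2 passed the filter through the TS lines alone, as they held 1 and 0 counts over ES and 0 and 6 over XEN. Their direction against TS was thus largely set by the filter, and their calls there are no support. Between ES and TS lines 4 of 5 were called at an adjusted p under 0.05, all lower in ES, beside 41.3% of all genes tested. Between ES and XEN lines 3 of 5 were called (1 higher and 2 lower in ES) beside 45.1%, and between TS and XEN lines 3 of 5, all higher in TS, beside 36.7%. Among lines of a lineage, where the p measures only the spread between passages, 3 of 5 were called in TS beside 19.9% of all genes. None was called among ES lines by edgeR (1 at an unadjusted p under 0.05, 0 by DESeq2) beside 0.302%, or among XEN lines (1 unadjusted, 0 by DESeq2) beside 7.84%. Without ES line 1 the ES to TS count was 1 gene, and without ES line 2 it was 2.

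The other genes of the myeloid programme were read from a list of 40, of which 14 passed the filter in the lines. In XEN 21 of the 40 were at 0 in every library, in ES 22 and in TS 3 (Mpo, S100a9 and Cd86). TS had 6 libraries against 4 each in ES and XEN, and replicate 1 of TS line 2 was among them. Genes with more than 3 counts numbered 11 to 15 per ES library and 3 to 10 per XEN library. TS libraries had 9 to 11 such genes, apart from 25 in replicate 1 of TS line 2. Of the 14 tested, 10 (71.4%) were called between ES and XEN, beside 45.1% of all genes, all higher in ES, and the median log2 fold change was 4.15 beside 0.05 over all genes tested. Irf8, a transcription factor of monocytes and dendritic cells, led with Csf2ra, the GM-CSF receptor chain: 6.77 (SE 1.07, adjusted p = 0.00338) and 6.18 (SE 1.04, adjusted p = 0.00303). Irf8 held 21 counts over the ES libraries (0.108 to 1.07 CPM), 119 over TS and 0 over XEN. The size of its change thus rests on few counts. Between TS and XEN 6 (42.9%, beside 36.7% of all genes) were called, all higher in TS, with Cd68, a lysosomal glycoprotein, at 2.63 (SE 0.31, adjusted p = 0.000894) and Tlr2, a lipoprotein receptor, at 6.95 (SE 0.92, adjusted p = 0.00137). Between ES and TS 5 (35.7%, beside 41.3% of all genes) were called, 3 higher and 2 lower in ES. For both of these comparisons the share was near that of all genes. Fcgr2b, the inhibitory IgG receptor (4.32, SE 0.95, adjusted p = 0.0103), and the integrin gene Itgam (4.09, SE 1.22, adjusted p = 0.0372) were among the higher, and Tlr2 (-2.92, SE 0.71, adjusted p = 0.0155) and Cd68 (-1.03, SE 0.29, adjusted p = 0.0256) were lower. That last count depended on the ES lines, as 0 and 1 genes were called without ES line 1 and without ES line 2. Without ES line 1 the adjusted p was 0.077 for Fcgr2b, 0.068 for Tlr2 and 0.161 for Cd68, and Cd68 also lost its call without replicate 1 of every line (0.376).

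Of a list of 24 genes known from leukocytes, here called pan-leukocyte genes, 16 were tested. Between ES and XEN 12 (75.0%, beside 45.1% of all genes) were called, 11 of them higher in ES. The 6 called between TS and XEN (37.5%, all higher in TS) and the 7 between ES and TS (43.8%) were near the shares of all genes, 36.7% and 41.3%. Inpp5d, which encodes the phosphatase SHIP1, was higher in ES than in TS by 4.99 (SE 0.51, adjusted p = 0.000594) and Rac2, a GTPase of blood cells, by 5.96 (SE 0.64, adjusted p = 0.000682). Lcp1, which encodes the actin-bundling protein plastin, was lower in ES than in TS by -7.60 (SE 0.59, adjusted p = 0.000222). The median of the list was 1.25 between ES and TS beside -0.02 over all genes tested. Of 19 partner and related genes of the 8 in the table, 11 were tested. Between ES and TS 8 (72.7%, beside 41.3% of all genes) were called, 2 higher and 6 lower in ES, with Myd88, the adaptor of Toll-like receptors, at -2.49 (SE 0.28, adjusted p = 0.000763) and the kinase gene Lyn at -1.87 (SE 0.24, adjusted p = 0.00135). Between ES and XEN 8 (72.7%, beside 45.1%) were called. Between TS and XEN the 4 called (36.4%) were near the 36.7% of all genes.

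Replicate 1 of TS line 2 was the library in which macrophage genes did appear together. C1qa, C1qb and C1qc, which encode the chains of complement C1q and are classical macrophage transcripts, held 27, 26 and 21 counts there against 0, 1 and 0 in replicate 2. Msr1, a scavenger receptor gene, held 14 counts there and 0 in the other 13 line libraries. Ctss (20 against 1), Lilrb4 (17 against 2), Ms4a7 (12 against 1), Mpeg1 (28 against 2), Cybb (10 against 0) and Emr1, which encodes the macrophage antigen F4/80 (10 against 1), followed the same pattern. Of the other myeloid genes, 25 had more than 3 counts there, against 9 to 11 in the other TS libraries. Among 20 of them with at least 10 counts in either library of TS line 2, 10 were at least 4-fold higher in CPM in replicate 1, beside 1.43% of all genes. Among 25 with at least 10 counts over the lines, 13 had their highest CPM of all 14 libraries there, beside 7.89% of all genes. Both of these thresholds were chosen after the values were seen. Several of these genes reached 10 counts only through this library, such as Msr1 (14 of 14 line counts), C1qa (27 of 29) and Cybb (10 of 13). For them a highest level there was largely set by the minimum itself. The 4-fold count has a similar limit, so both counts are a description and no support. Their summed level was still modest, at 103 CPM against 70.4 to 92.5 CPM in the other TS libraries, most of it from Cd68, Tlr2 and Csf2ra, which did not differ by 4-fold between the passages.

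**Figure D3:**
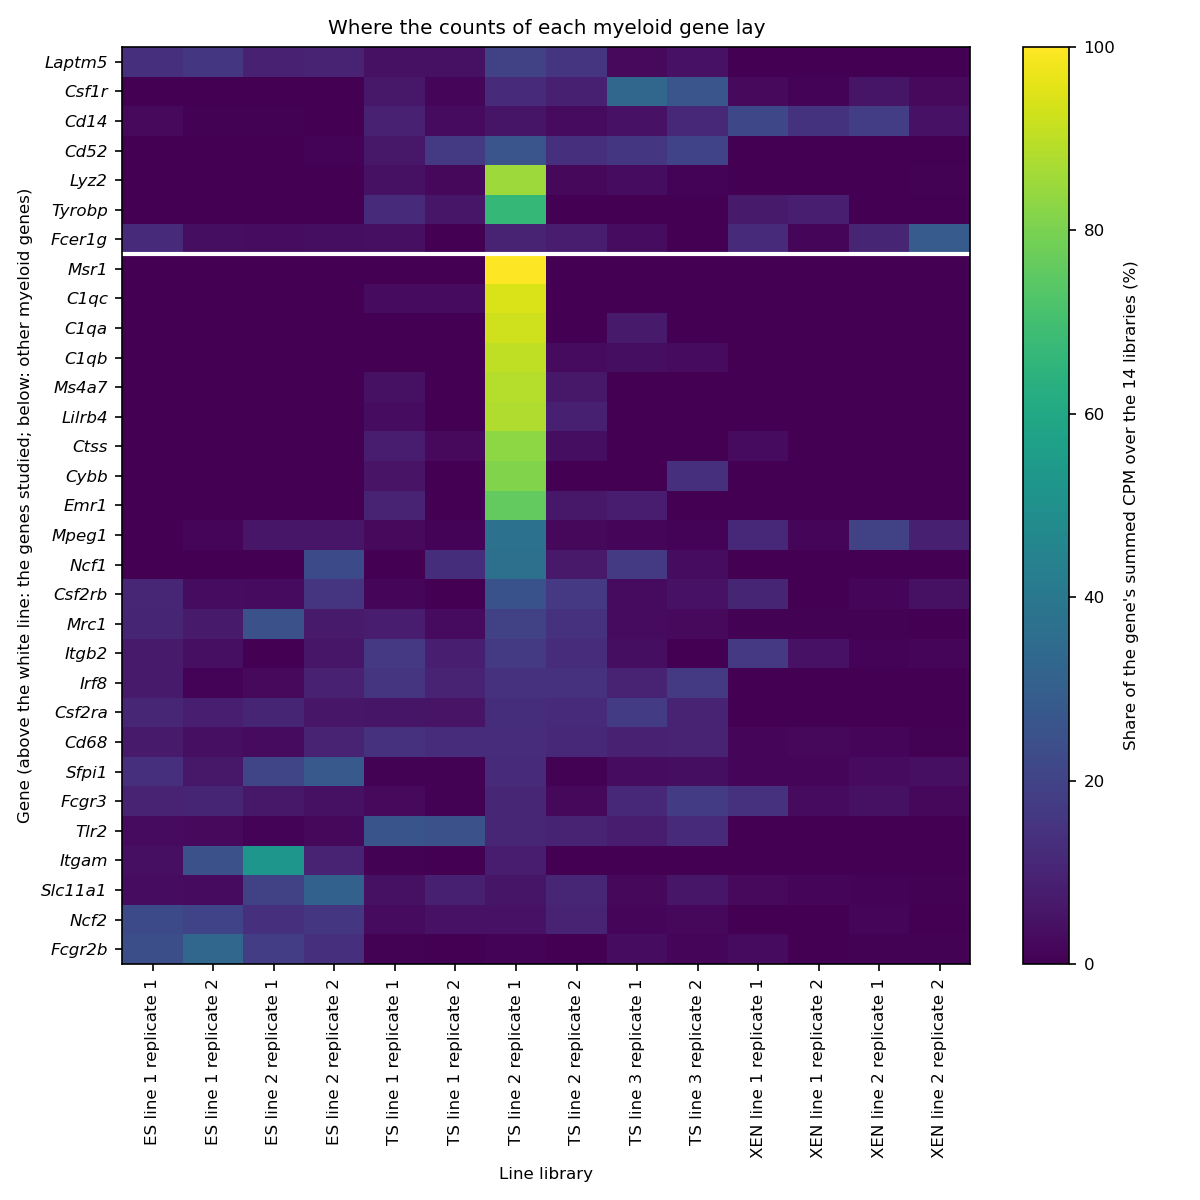
Share (%) of each gene's summed CPM that lay in each of the 14 line libraries, for the 7 of the 8 genes and 24 of the 25 other myeloid genes with at least 10 counts over the lines (1 is not drawn). Lyz2, Tyrobp and 9 of the other myeloid genes have more than 60% of their level in replicate 1 of TS line 2, while Laptm5, Csf1r, Cd14, Cd52 and Fcer1g are spread over other libraries.

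Of the 8 genes, Lyz2 and Tyrobp shared that pattern. Lyz2 had 81.1% of its 328 line counts in that library. Laptm5 and Cd52 were also at their highest there, yet replicate 2 of the line held 8297 Laptm5 and 16 Cd52 counts, and the Csf1r, Cd14 and Fcer1g counts of the pair (369 and 319, 9 and 5, 3 and 3) were much closer to each other. Ptprc was at 0 in both libraries. The pan-leukocyte genes Cd53 (7 against 0) and Plek (21 against 3) were higher in replicate 1, and Plek was the 1 gene of 13 eligible ones on that list at or above 4-fold. Fibroblast genes moved with the macrophage genes: Col1a1 held 901 counts against 85, Col1a2 828 against 30 and Col3a1 88 against 3, and 8 of 11 eligible fibroblast genes were at least 4-fold higher. Their summed level over 13 genes was 293 CPM there, against 42.7 to 95.3 CPM in the other TS libraries. Fibroblast genes also differed between the passages of TS line 1, with 30 and 242 Col1a1 counts and 1 and 39 Col3a1 counts in replicates 1 and 2, where C1qa and C1qb were at 0 and C1qc at 1 count in each. None of the fibroblast genes was at 0 in all TS libraries, whereas Col3a1, Dcn, Lum and Postn were at 0 in all ES libraries. Lymphoid genes (0 of 9) and erythroid and platelet genes (0 of 9) did not have their highest level in that library. Genes of the trophoblast list (0 of 3) did not either. For lists this short, 0 is near the 7.89% of all genes that had their highest CPM there. Of 7 eligible endothelial genes 2 did, Pecam1 (132 CPM against 44.2 CPM in replicate 2) and Kdr (61.2 against 60.3 CPM), and none was 4-fold higher there. The part of these other transcripts in the Lyz2 and Tyrobp counts was not tested.

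**Figure D4:**
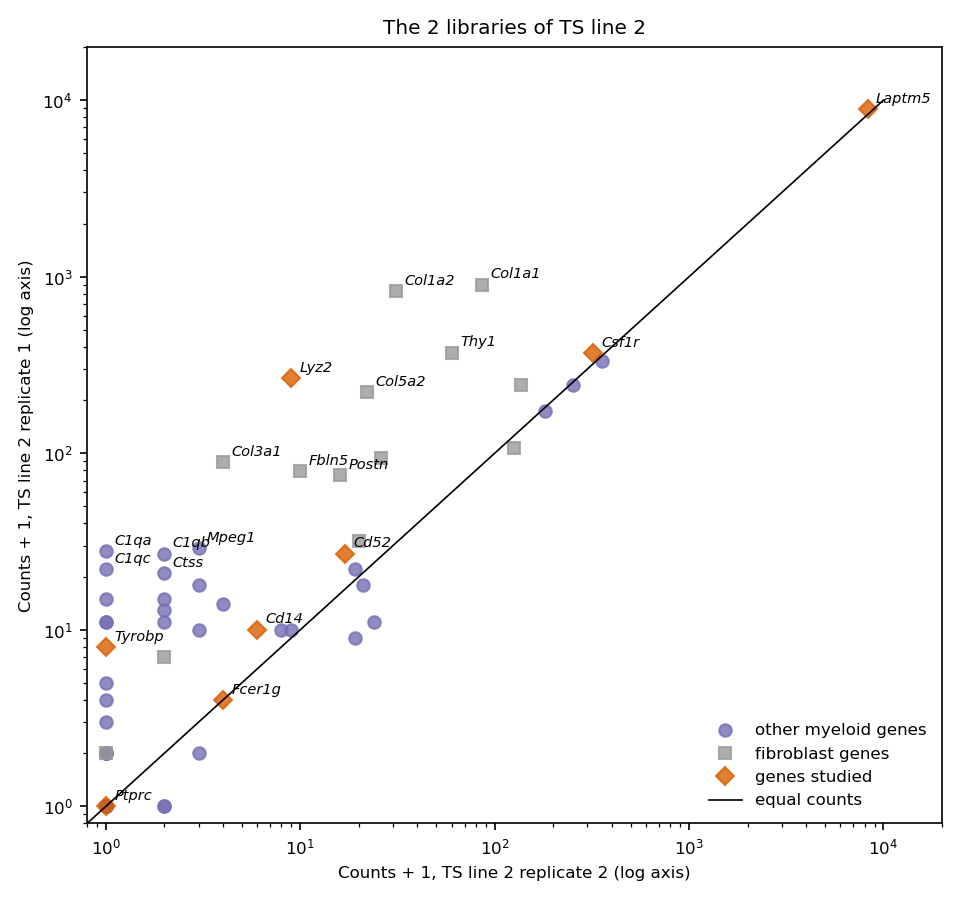
Counts plus 1 in replicate 2 (horizontal) and replicate 1 (vertical) of TS line 2, both on log axes, for the 8 genes (diamonds), the other myeloid genes (circles) and the fibroblast genes (squares), with a line of equal counts. Lyz2, the C1q genes and the collagen genes lie far above the line, while Laptm5 and Csf1r lie close to it.

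In the embryos the genes were sparse and followed no common pattern either. Cd14 held 186 and 144 counts in the Nanog-null female embryos 1 and 2 and 0 in both null males, and 1, 31, 0 and 17 in the wild-type female, wild-type male, heterozygous female and heterozygous male. The null females were the highest and the null males shared 0 with the heterozygous female, so the genotypes overlapped. Laptm5 held 170 and 323 counts in the wild-type female and male and 2 and 259 in the heterozygous female and male, against 0, 1, 0 and 2 in the null embryos, so the heterozygous female lay with the nulls. Cd52 was found in 2 embryos, a null female (29 counts) and the wild-type male (19 counts). Csf1r held 9 counts in the wild-type female, 5 in a null female and at most 2 elsewhere. Lyz2 held 13, 9, 33 and 0 counts in null female 1, null female 2, null male 1 and null male 2, and Lyz1 held 8, 3, 10 and 0 in the same order. Lyz2 was at 0 in all 4 embryos with Nanog. Tyrobp was at 0 in all 8 embryos, Fcer1g held 2 counts and Ptprc 1.

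Of the 8 genes 4 could be tested between the 4 null and the 4 Nanog-bearing embryos, and edgeR called 0 of them (2 at an unadjusted p under 0.05, 1 by DESeq2), beside 0.0154% of all genes. Of the other myeloid genes 9 were tested and edgeR called 0 (0 at an unadjusted p under 0.05, 0 by DESeq2). The number of other myeloid genes with at least 1 count was 21 in null female 2 and 19 in null male 2. It was 4 and 8 in the other null embryos and 8 to 10 in those with Nanog. With more than 3 counts there were 10 and 7 such genes, against 3 and 8 in the other nulls and 6 to 10 with Nanog. The excess of other myeloid genes thus lay in genes at or below the floor of 3 counts. Of 13 fibroblast genes, 8 in null female 2 and 5 in null male 2 had more than 3 counts, against 1 to 3 in the other embryos. Their summed level was 11.2 and 6.85 CPM in these embryos and 1.25 to 16.3 CPM in the others. Whether the fibroblast and myeloid counts have a shared source was not tested. Null female 2 was the embryo with 29 Cd52 counts, and the part of its other transcripts in that value was not tested. C1qa held 88 counts (4.02 CPM) in null female 2, 1 in null male 2 and 0 in the other 6 embryos. C1qb held 5 counts in each of null female 2 and null male 2 and 0 elsewhere, and C1qc was at 0 in all 8.

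**Figure D5:**
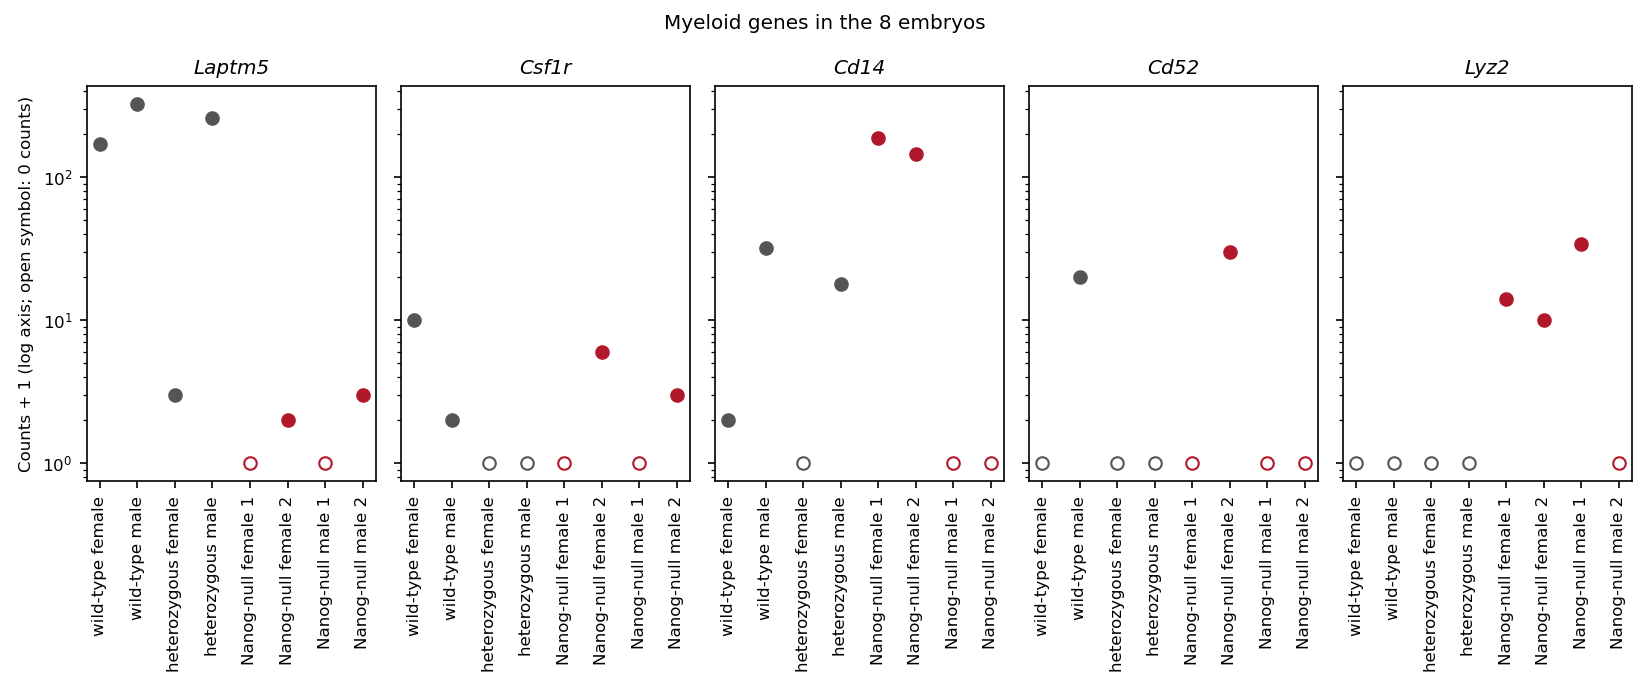
Counts plus 1 (log axis) of Laptm5, Csf1r, Cd14, Cd52 and Lyz2 in each of the 8 embryos, with grey for wild type and heterozygous, red for Nanog-null and open symbols for 0 counts. Cd14 reaches 186 and 144 counts in the null females and 0 in the null males, while Laptm5 reaches 170 to 323 counts in 3 of the 4 embryos with Nanog.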

How the data were processed

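The authors deposited raw counts per gene symbol for 22 libraries, as whole numbers that were not normalized. Per the submitters' processing notes the tools were TopHat 1.3.1 and edgeR (no version given) and the genome build was mm9. Not given in the sources used here are the counter, the annotation and whether strand was used, so reads of antisense or overlapping genes cannot be told apart. A second deposited table, of the authors' Nanog-regulated genes, was not used here.

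The 8 genes, the gene lists and the rules were chosen with earlier results of these data known. CPM was computed on the library total. Lineages were compared by the quasi-likelihood test of edgeR 4.0.16 (R 4.3.3; TMM scaling, filterByExpr, Benjamini-Hochberg adjustment over all genes tested, threshold 0.05) on the summed counts of the 2 libraries of each of 7 lines, since passages of a line are technical replicates. Lines within a lineage were compared on the 14 single libraries, and embryos with genotype and sex as terms. An SE of a log2 fold change was derived from its F statistic (size of the change over the root of F). The filter kept 14687 genes in the lines, 14547 in the line libraries and 12965 in the embryos. Nothing in the labels says that the lines of a lineage come from separate animals, so p-values measure the spread between these lines.

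Named were the 8 genes, from each list the called genes by smallest p (up to 4 per comparison) and genes at 0 in all line libraries, and for each of the 8 with at least 30 line counts the 3 tested genes with the highest correlation of log2 CPM (prior count 2). Further list genes were named in TS line 2 after their values were seen, as were genes of the receptor systems, Lyz1 and list members lower in the order of p. Syk and Tfap2c, on the lists, were not analysed here. A called list gene is not reported by name here. Poisson, binomial and ratio intervals are exact at 95% and cover counting error only. Checked on simulated data, the lines fit recovered 80 of 100 genes changed 4-fold and 100 of 100 changed 16-fold between ES and TS (14465 genes). The fit among TS lines recovered 42 of 100 changed 2-fold and 99 of 100 changed 4-fold (13946 genes). The embryo fit recovered 31 of 100 changed 16-fold (13194 genes). Only genes above a minimum mean count were changed, with 1 common spread for all genes, so genes with few counts are not covered. Alternatives were DESeq2 1.42.0, its size factors, no filter on low counts, each line, library or embryo left out, a replicate block, no sex term and, chosen after seeing the data, leaving out replicate 1 of TS line 2.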

Additional observations from a re-analysis of the deposited data

Results flagged for a closer look

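A library was singled out where its gap to the nearest other library of its group, relative to the range of the group, passed Dixon's 95% critical value. Of 19 groups of 4 to 6 libraries tested, 5 held such a value, and by chance about 1 in 20 groups would in independent samples. That rate does not apply as it stands here: the genes were chosen with these values known, TS libraries come in passage pairs, and where the other libraries are at 0 any count passes. The values below are therefore a description. In TS, replicate 1 of line 2 stood apart for Lyz2 at 25.6 CPM (266 counts), against 0.331 to 1.40 CPM in the other 5 libraries. The same library stood apart for Tyrobp at 0.675 CPM (7 counts), against 0 to 0.121 CPM. Among Nanog-null embryos, female 2 stood apart for Cd52 at 1.32 CPM (29 counts), with 0 in the other 3. Among embryos with Nanog, the wild-type male stood apart for Cd52 at 0.589 CPM (19 counts), with 0 in the other 3. The wild-type female stood apart for Csf1r at 0.381 CPM (9 counts), against 0 to 0.0310 CPM.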

How the results depend on the processing

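Counts of genes called moved by more than 1.5 times under these alternatives. With no filter on low counts, 82 genes were called among ES lines and 50 between null and Nanog-bearing embryos, and with DESeq2 155 and 87, against 44 and 2 by edgeR with the filter. With 1 line left out, ES against TS gave 2429 (without ES line 1) to 6233 genes and ES against XEN 3997 (without ES line 2) to 7646, against 6063 and 6630. Leaving out 1 library gave 18 to 42 among ES lines, 682 (without TS line 3 replicate 1) to 2173 among TS lines (2899 with all), 467 (without XEN line 1 replicate 2) to 2542 (without XEN line 2 replicate 1) among XEN lines, and 1 to 2 in embryos. A line with 1 library left is assumed to vary like the others. The number of the 8 genes called ranged from 1 to 5 for ES against TS, 2 to 3 for ES against XEN, 2 to 4 for TS against XEN, 1 to 3 among TS lines and 0 to 1 in embryos. Replicate numbers name passages of separate lines, and deviations of same-numbered libraries correlated above 0.1 in 2 of 21 pairs of lines (range -0.326 to 0.133), so the numbers do not pair the lines. With single libraries and a replicate block, ES against TS gave 8025 genes, ES against XEN 8215 and TS against XEN 7275, and among lines the block gave 32 (ES), 2678 (TS) and 1082 (XEN). Leaving out replicate 1 of TS line 2 gave 6016 genes between ES and TS and 5296 between TS and XEN, and 1891 among TS lines. For list genes, 38 log2 fold changes and 26 adjusted p-values lost their call under an alternative, 506 and 54 kept their side of the threshold, and no called value changed sign. Lyz2 in XEN was 0.0614 or 0.121 CPM by passage, at the level of 1 or 2 counts. Depth limits Tyrobp, Fcer1g and Ptprc, which were at or near the floor of 3 counts in most libraries.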
